A study of Mus musculus with 27 samples.

Results

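The subject here is the change in relative ribosome association between the last 2 stages of adult olfactory bulb neurogenesis in the mouse, from late neuroblasts (LNB) to neurons (Neuron). For each gene it is the Neuron difference between ribosome-bound and total mRNA minus the same difference in LNB, on the log2 scale. A gene was kept when its mean level in both ribosome-bound groups, as counts scaled to the library total (CPM), exceeded its mean in the bulb controls without the HA tag. Of 45195 genes in the table, 6359 met this rule and 5608 of them had enough counts to be tested, among 19913 genes tested in all. The rule used the levels of the ribosome-bound groups, so the position of these genes above the control is a description and not a finding.

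The comparison rests on 2 Neuron ribosome-bound, 3 LNB ribosome-bound, 3 Neuron total mRNA and 3 LNB total mRNA libraries, with 3 control libraries beside them. All came from the olfactory bulb of male mice aged 8 to 12 weeks on a C57BL/6 background. The HA-bearing mice (DiCRY in the labels) carried a Dcx-driven CreER, an eYFP reporter and the RiboTag allele of Rpl22, which gives recombined cells an HA-tagged ribosomal protein. All received oral tamoxifen at 200 mg per kg. In the labels the LNB immunoprecipitates read 3dpi and the Neuron libraries read 4wpi, while those of the LNB total mRNA give no time. The controls read 3dpi for replicates 1 and 2 and 4wpi for replicate 3, so only 1 control matches Neuron in time. Where 3 control values are listed below, they stand in that order. Total mRNA came from 200 to 500 sorted eYFP-positive cells of 1 to 2 mice for each library. Ribosome-bound mRNA was pulled down with an anti-HA antibody from homogenate of the whole bulb without a sorting step, so total and bound mRNA were not taken from the same preparation. A label field of the Neuron ribosome-bound libraries reads total mRNA, and their group was taken from title and description instead. Because Cre is driven by Dcx, recombination starts in neuroblasts, and the Neuron stage is set by the time after tamoxifen. The p-values rest on the spread between libraries of the same group in a fit of 21 libraries. That fit held the 11 libraries of the contrast and those of the earlier stages, without the controls.

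RiboTag recovers mRNA attached to tagged ribosomes, and comparing it with total mRNA shows which transcripts are over- or under-represented on ribosomes, without showing where ribosomes sit. Late neuroblasts leave the migratory stream, stop expressing immature neuron genes and mature into inhibitory granule and periglomerular interneurons. Messenger RNAs of ribosomal proteins begin with a pyrimidine-rich stretch, the terminal oligopyrimidine (TOP) motif, through which mTOR signalling and LARP1 govern their translation.

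Library totals ran from 5225929 to 14624002 counts over the 14 libraries. Spearman correlations between replicates lay between 0.87 and 0.985 over 13 pairs, and 0 pairs were identical. Over the 5608 genes the Neuron ribosome-bound level was a median of 1.54 times the control and the LNB level 1.42 times, and 490 genes exceeded 2 times the control in both. Just inside the rule stood Pik3r1, with a Neuron mean of 121.565 CPM against 121.553 in the control. Just outside stood Sfxn1, with a Neuron mean of 67.1406 CPM against 67.1582 in the control. Of 8 lists of markers of other bulb cell types, 5 had 0 genes above the control: astrocytes, oligodendrocytes, microglia, endothelial and mural cells, and blood cells. Summed astrocyte markers were 823 to 1160 CPM in Neuron ribosome-bound libraries, 2430 to 3330 CPM in LNB ribosome-bound libraries and 3010 to 6520 CPM in the controls. In total mRNA the astrocyte markers summed to 2660 to 12900 CPM in Neuron and 2590 to 24200 CPM in LNB libraries. Oligodendrocyte markers summed to 2070 to 9760 CPM in Neuron and 1530 to 3270 CPM in LNB total mRNA. No marker of the astrocyte, oligodendrocyte or microglia lists was at 0 in a whole group, whereas 4 haemoglobin genes were at 0 in Neuron total mRNA. The part of other cells in the results below was not tested. In whole-bulb immunoprecipitates, fewer tagged cells of a type and less RNA per cell cannot be told apart.

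In the contrast, 46 of 79 ribosomal protein genes were called higher in Neuron, of which only 18 were above the control. So were 8 of 42 bulb interneuron transcription factors, Sp9 among them, and 9 of 44 neuroblast genes, while 1 neuroblast gene was called lower. Of all genes tested, 1.46% were called higher and 1.69% lower. Called lower were 18 of 65 vesicle genes such as Syn2 and 14 of 70 ion channel and transporter genes such as Slc12a5. The same held for 6 of 38 postsynaptic genes, with 1 called higher, and for 1 of 25 interneuron subtype genes, Scgn. In all called genes above the control the total mRNA value had the opposite sign, while the median ribosome-bound change was small. The contrast subtracts the total mRNA change by construction, so the opposite sign alone is not a separate result. For that reason group levels are given for many of the named genes, though not for all.

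Of the 5608 genes above the control, edgeR's quasi-likelihood test called 275 at an adjusted p below 0.05, 165 of them higher (2.94%) and 110 lower (1.96%) in Neuron. Across all 19913 tested genes it called 627 (3.15%), of which 291 (1.46%) were higher and 336 (1.69%) lower. Nothing is read from these shares, since this contrast was used to choose what is described here. Of all called genes above the control 60.0% were higher, but 41.4% (104 higher and 147 lower) when the scale factors were computed from the genes above the control. The median contrast of all genes was -0.28 with that scaling and -0.10 in the main fit, so the share of calls in each direction depends on where zero is set. The ribosome-bound change by itself was called in 18 genes above the control, 10 higher and 8 lower, and in 149 of all genes (0.748%), 16 higher (0.0803%) and 133 lower (0.668%). The total mRNA change was called in 1493 genes above the control, 765 higher and 728 lower, and in 3844 of all genes (19.3%), 1802 higher (9.05%) and 2042 lower (10.3%).

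The 165 genes called higher had a median contrast of 1.72, made of a ribosome-bound change of 0.11 and a total mRNA change of -1.74. Total mRNA was itself called lower in 155 of them, and the ribosome-bound change was called in the same direction as the contrast in 2, Atp5j and Atp5l. It was called in the opposite direction in 3, Tubb2b, Cd24a and Dusp4, whose bound mRNA fell less than their total mRNA. The 110 genes called lower had a median contrast of -2.48, a ribosome-bound change of 0.37 and a total mRNA change of 2.84. Total mRNA was called higher in all 110, and the ribosome-bound change was called in 0 of them by edgeR, although 19 had an unadjusted p under 0.05 and DESeq2 called 1. Over all 5608 genes above the control, 7.47% differed by more than 1 log2 unit in ribosome-bound mRNA, compared with 34.5% in total mRNA. Between ribosome-bound and total mRNA, 27.1% of these genes differed by more than 1 log2 unit in Neuron and 30.6% in LNB.

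Leaving out a library changed how many calls remained. Of the 275 calls, 30 remained without Neuron ribosome-bound replicate 2 and 64 without Neuron ribosome-bound replicate 1. Between 81 and 112 remained when an LNB ribosome-bound library was left out, 127 to 249 when an LNB total library was, and 161 to 205 when a Neuron total library was. All 275 kept their sign in each of these 11 fits. With that library left out and the rule and test applied anew, 32 genes above the control were called. Among the tested genes that the rule for named genes picked, the calls of Klhl1, Cpne6, Rps27a and S100a10 held in all 11 fits. For most of the others, the paragraphs that follow give the adjusted p without the library that weakened the call most and the fits that kept it or lost it. The LNB ribosome-bound libraries share a second barcode index that no other library of the contrast has, though 2 of the 3 controls do, so the index and that group cannot be told apart within these 11 libraries. The 3 Neuron total libraries share 1 index, which only 1 LNB total library has, so index and stage are partly confounded in total mRNA too. With that LNB total library alone, the median contrast was 1.28 for ribosomal protein and -1.33 for vesicle genes. The median total mRNA change of astrocyte markers was then 1.15, against -1.13 in the main fit. With the index as a term, which required the controls and the earlier stages, 60 genes above the control were called, 49 higher and 11 lower, and 35 of these were among the 275.

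The transcription factors of the bulb interneuron lineage stood among the genes with the most positive contrast. Dlx2, a homeobox factor that specifies forebrain inhibitory neurons, had 154 and 94.9 CPM in Neuron and 205, 245 and 224 CPM in LNB ribosome-bound libraries. In total mRNA it had 48.8, 50.6 and 26.2 CPM in Neuron and 689.9, 814 and 362 CPM in LNB libraries, and the controls held 104, 83.5 and 63.3 CPM. The total mRNA groups did not overlap. The lower Neuron ribosome-bound library lay within the range of the controls, though above the 63.3 CPM of the control labelled 4wpi. The contrast of Dlx2 was 3.12 ± 0.48 (log2 ± SE), from -0.79 in ribosome-bound and -3.90 in total mRNA, and it is given without a test because the gene was chosen with results known.

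Sox11, a SoxC factor of immature neurons, did not meet the rule. It had 65.3 and 115 CPM in Neuron ribosome-bound libraries, within or below the 71.0 to 142 CPM of the controls, and 466, 450.1 and 799 CPM in LNB ribosome-bound libraries. Its total mRNA was 21.1, 18.5 and 46.9 CPM in Neuron and 1689.7, 2835 and 926 CPM in LNB. The contrast of 3.39 ± 0.61 therefore compares a Neuron ribosome-bound level at background with a total level that is lower still.

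Sp9, a zinc-finger factor needed for bulb interneuron production, had 94.4 and 119 CPM in Neuron and 153, 177 and 130.1 CPM in LNB ribosome-bound libraries. Its total mRNA was 18.4, 40.3 and 12.6 CPM in Neuron and 212, 448 and 134 CPM in LNB. Every ribosome-bound library was above every control (39.3 to 69.7 CPM), and the contrast was 3.03 ± 0.73 (adjusted p = 0.0326 by edgeR). Sp9 (adjusted p = 0.169 without Neuron ribosome-bound replicate 2) kept its call in 2 of 11 fits, those without LNB total replicate 3 or Neuron total replicate 2. Of 42 bulb interneuron transcription factors tested, 20 were above the control, 8 were called higher and 0 lower (4 lower at an unadjusted p under 0.05 and 1 by DESeq2), and the list's median was 0.83 against -0.10 for all genes. Dlx5 (2.36) and Insm1 (2.69) were also called above the control and were named after their values were seen.

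**Figure D1:**
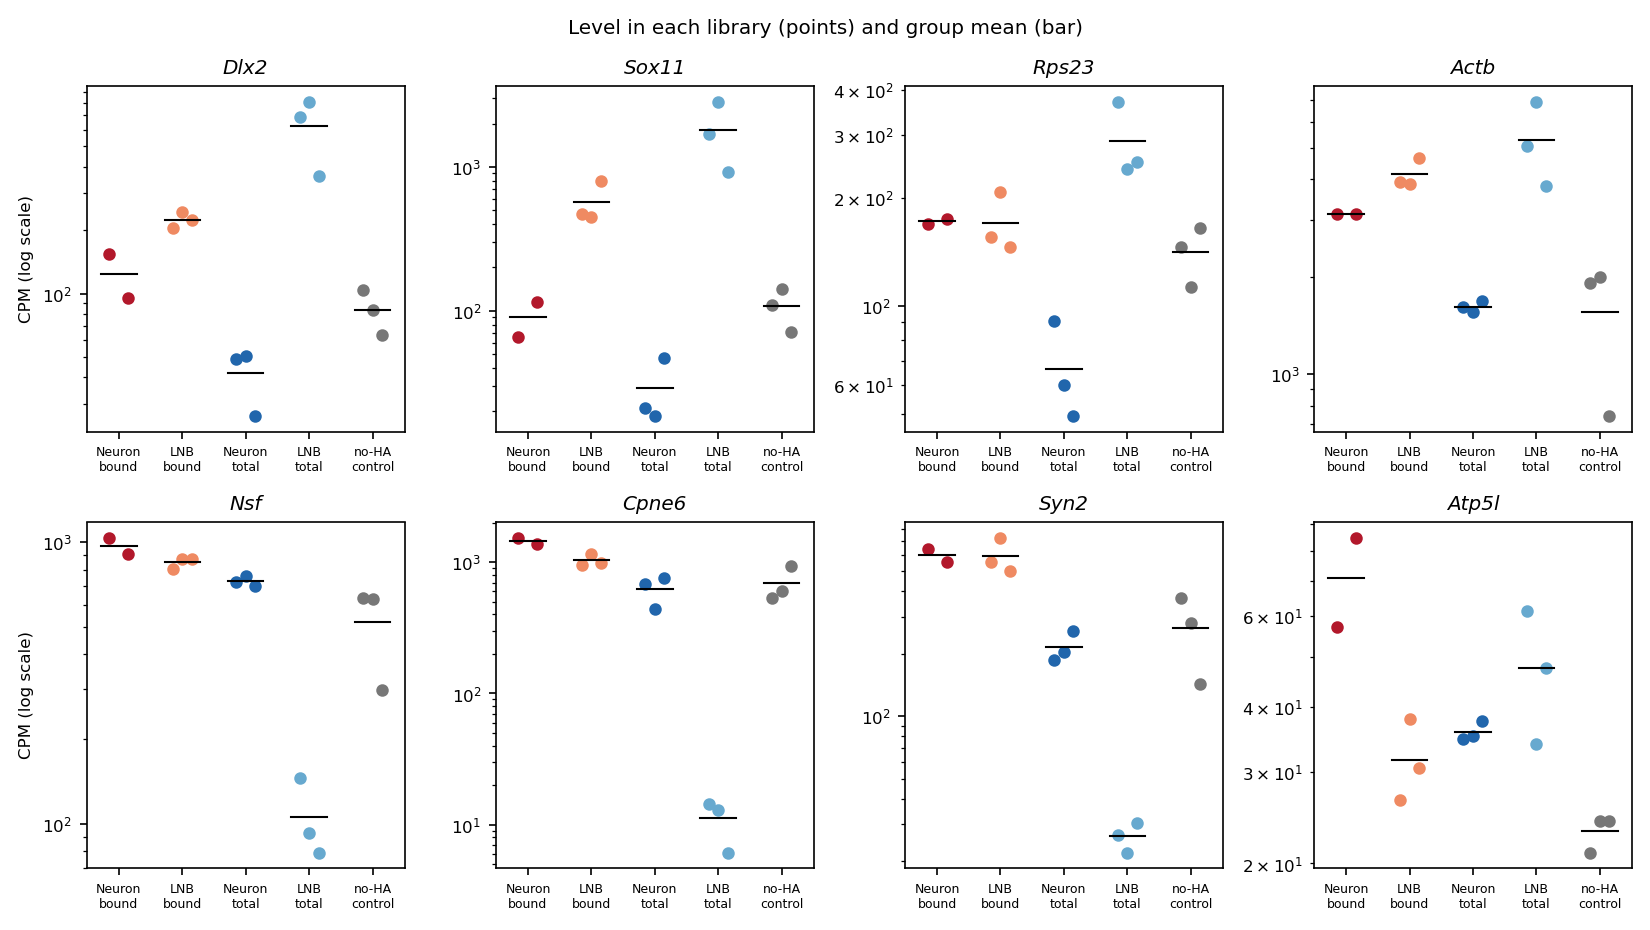
Level of 8 genes in each library (points) with the group mean (bar), in CPM on a log scale; "bound" is HA immunoprecipitate and "no-HA control" the same immunoprecipitation from bulb without the tag. In Nsf, Cpne6 and Syn2 the 3 LNB total mRNA libraries stand far below every other library, in Dlx2, Sox11, Rps23 and Actb the total mRNA groups differ more than the bound groups, and in Atp5l both Neuron bound libraries lie above all LNB bound libraries.

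Of 44 neuroblast genes, 9 were called higher and 1 lower in the contrast, 33 had a positive value, and 9 fell on ribosomes. Tubb2b, a tubulin isotype of migrating neurons, had 160.2 and 160.3 CPM in Neuron and 702, 781 and 892 CPM in LNB ribosome-bound libraries. Total mRNA held 88.5, 102 and 92.4 CPM in Neuron and 1275, 1261 and 779 CPM in LNB. Neither the bound nor the total groups overlapped. The Neuron ribosome-bound level was close to that of the 2 controls labelled 3dpi (164 and 163 CPM). It was above the 39.7 CPM of the 1 control labelled 4wpi, as the Neuron libraries are. Its bound mRNA changed by -2.24 ± 0.27 (adjusted p = 0.000483) and its total mRNA by -3.57 ± 0.24, which leaves a contrast of 1.33 ± 0.33 (adjusted p = 0.035). Cd24a, a surface glycoprotein used to sort neuroblasts, had a contrast of 2.05 ± 0.48 (adjusted p = 0.0282), with a bound change of -2.11 and a total change of -4.16. Dusp4, a MAP kinase phosphatase, fell to 3.90 and 5.47 CPM in Neuron ribosome-bound libraries, against 47.2, 38.1 and 42.5 CPM in LNB, and its contrast was 2.59 ± 0.49 (adjusted p = 0.0107). The controls of Dusp4 held 7.33, 4.64 and 0.219 CPM, so its Neuron ribosome-bound libraries lay within their range. Dusp4 was not picked by the rule for named genes and was named after its values were seen. Dclk2, a doublecortin-family kinase, was higher by 1.65 ± 0.30 (adjusted p = 0.00919) and Tiam2, a Rac exchange factor, by 2.12 ± 0.42 (adjusted p = 0.0133). Above the control were 26 of the 44, with 6 called higher, and 30 of the 44 were lower in total mRNA. Tubb2b (adjusted p = 0.17 without Neuron ribosome-bound replicate 2) and Cd24a (0.128 without replicate 1 of that group) kept their calls in 2 of 11 fits, those without LNB total replicate 3 or Neuron total replicate 3. Tiam2 lost its call without either Neuron ribosome-bound library (adjusted p up to 0.0729), and Dclk2 without replicate 1 of that group (0.0863).

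Ribosomal protein genes were higher in 46 of 79 tested, and lower in 0, as also at an unadjusted p under 0.05 and by DESeq2. All 79 had a positive contrast, from 0.20 to 2.97 with a median of 1.35, and 77 of them were lower in total mRNA. Their ribosome-bound levels had a median change of -0.25, with 1 called lower and 0 higher (0 at an unadjusted p under 0.05 and by DESeq2 too). The summed level of the list was 10300 to 11200 CPM in Neuron and 11900 to 15300 CPM in LNB ribosome-bound libraries, against 12500 to 15900 CPM in the controls. In total mRNA the sums were 5800 to 8360 CPM in Neuron and 17000 to 22900 CPM in LNB. Only 24 of the 79 were above the control in both ribosome-bound groups, and 18 of those were called higher. The positive median held with scale factors by RLE (1.27) and with those from genes above the control (1.13), and on expected counts 77 of the 79 were positive. Many ribosomal protein genes have near-identical processed pseudogenes, so how reads were divided among copies makes single values of these genes uncertain.

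Rps23, a protein of the small subunit's decoding centre, had 169 and 175 CPM in Neuron and 155, 208 and 146 CPM in LNB ribosome-bound libraries. Total mRNA of Rps23 was at 90.5, 60.2 and 49.2 CPM in Neuron and 371, 240.2 and 252 CPM in LNB. The bound groups overlapped each other and reached the controls (146, 113 and 165 CPM), while the total groups did not overlap. The contrast was 2.21 ± 0.37, given without a test because the gene was chosen with results known. Rps27a, which is made as a fusion with ubiquitin, had 175 and 186 CPM in Neuron and 205, 242 and 164 CPM in LNB ribosome-bound libraries. It had 79.8, 83.8 and 83.0 CPM in Neuron and 361, 250.1 and 252 CPM in LNB total mRNA. The controls of Rps27a held 169, 123 and 195 CPM, so its Neuron ribosome-bound libraries and its lowest LNB one lay within their range. The Neuron ribosome-bound libraries also lay below the control that matches Neuron in time (195 CPM). The contrast of Rps27a was 1.72 ± 0.29 (adjusted p = 0.00515), and the call held without any single library of the 11. Rps21 (2.75 ± 0.51, adjusted p = 0.00934) and Rps13 (1.87 ± 0.35, adjusted p = 0.0102), both of the small subunit, lost their calls without Neuron ribosome-bound replicate 2 alone (adjusted p = 0.058 for Rps21 and 0.0729 for Rps13). Rpl22, the protein that carries the tag, had a contrast of 0.76 ± 0.40 and was not called (adjusted p = 0.313).

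The starts of these genes bear on the TOP motif, and 30-base windows from RefSeq (GRCm38.p6), from 10 bases before the annotated start through 20 bases from it, are shown for genes of both directions. Capitals mark a run of a C followed by at least 4 C or T bases that begins no later than the fifth base of the transcript, read on the transcribed strand. A run may begin up to 10 bases before the annotated start. In Naca it lies wholly before that start, in Rps21 it spans the start, and in Rps23 it lies within the transcript.
Rps23: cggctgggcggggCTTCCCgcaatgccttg
Rps21: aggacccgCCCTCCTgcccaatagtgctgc
Naca: tcgttCTCTTaaagaggaaacccggacgcc
Dlx2: gagcctgcccggcagacaatcgtaaagctg
Nsf: ccggctgccggcgagcacgcgcgcggcgga
The windows lie at chr13:90923112-90923141 on the plus strand for Rps23, chr2:180257369-180257398 on the plus strand for Rps21, chr10:128035336-128035365 on the plus strand for Naca, chr2:71546735-71546764 on the minus strand for Dlx2 and chr11:103954037-103954066 on the minus strand for Nsf.

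Such a run was present in 50 of 124 genes with a window that were above the control and called higher (40.3%) and in 15 of 84 called lower (17.9%). For comparison it was present in 3310 of the 12793 tested genes with a window (25.9%) and in 24.3% of all 27025 windows. Of the 58 ribosomal protein genes with a window 29 held it (50.0%), and of the 15 above the control and called higher 11 did (73.3%). Leaving the ribosomal proteins out, 39 of 109 genes called higher held a run (35.8%). Of 16 TOP mRNAs beyond the ribosomal proteins with a window, 7 held it (43.8%). The windows shown above are examples, and others differ from them. Rps13 and Btf3, called higher, held no run, while Atp1b1, Atp6v1a and Tuba8, called lower, held a run. Annotated starts can differ from the starts used in these cells, so a missing run says only that these letters are not in the window. Runs that lie wholly before the annotated start are counted as well, so the shares mix upstream and transcript bases. Median GC content of the windows was 60.5% for genes called higher, 59.2% for genes called lower and 60.3% for all tested.

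Beyond the ribosomal proteins, 22 other mRNAs known to carry a TOP start had a median contrast of 0.65, with 21 positive, 2 called higher and 0 lower (0 also at an unadjusted p under 0.05 and by DESeq2). Naca, which guards nascent chains at the ribosome, had 236 and 298 CPM in Neuron and 223, 254 and 247 CPM in LNB ribosome-bound libraries. Its level in total mRNA was 150.3, 146 and 162 CPM in Neuron and 293, 282 and 269.6 CPM in LNB. The bound groups overlapped and the total groups did not, with a contrast of 1.12 ± 0.23 (adjusted p = 0.0152). Its partner Btf3 was higher by 1.27 ± 0.29 (adjusted p = 0.0239). Of 38 initiation and elongation factors, 1 was called higher, Eif1b at 1.18 ± 0.29 (adjusted p = 0.035), and 0 lower (2 at an unadjusted p under 0.05 and 2 by DESeq2), with a median of 0.23 (-0.02 without LNB total replicate 2). The mTOR pathway list had 1 gene lower and 0 higher of 36 (4 higher at an unadjusted p under 0.05 and 0 by DESeq2), and that gene was Rragd, a Rag GTPase that recruits mTORC1 to lysosomes, at -2.03 ± 0.51 (adjusted p = 0.0386). Naca lost its call without LNB ribosome-bound replicate 1 or Neuron ribosome-bound replicate 2 (adjusted p up to 0.164). Btf3 (up to 0.135) kept its call in 3 of 11 fits, those without LNB total replicate 3 or Neuron total replicate 2 or 3. Eif1b (up to 0.257) and Rragd (up to 0.175) kept theirs in 2, Eif1b without LNB total replicate 2 or Neuron total replicate 3 and Rragd without LNB total replicate 2 or Neuron total replicate 1.

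In oxidative phosphorylation genes the ribosome-bound change was larger than the total mRNA change at the median. All 76 genes tested had a positive ribosome-bound change, between 0.23 and 1.22 with a median of 0.71. Of these 6 were called higher, against 0.0803% of all genes and 0.178% of the genes above the control. Their total mRNA had a median change of 0.20, with 11 called higher and 4 lower. The contrast was called higher in 7 and lower in 0 (1 at an unadjusted p under 0.05 and 0 by DESeq2), with a median of 0.54, and 72 of the 76 were above the control. All 76 bound changes stayed positive with RLE factors, with factors from genes above the control and on expected counts, and 74 with the index as a term. The ratio to the control had a list median of 2.12 in Neuron and 1.38 in LNB, and summed astrocyte markers were lower in the Neuron immunoprecipitates, as given above. The part of that background in the bound change was not tested. The bound median also exceeded the total median over the 5608 genes above the control (0.19 and -0.05) and over the 31 proteasome subunits (0.21 and -0.13).

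Atp5l, subunit g of ATP synthase, had 57.0 and 84.6 CPM in Neuron and 26.4, 38.0 and 30.6 CPM in LNB ribosome-bound libraries, and at most 24.1 CPM in the controls. Total mRNA of Atp5l was at 34.7, 35.1 and 37.7 CPM in Neuron and 61.3, 34.0 and 47.6 CPM in LNB. The bound groups did not overlap and the total groups did. Bound mRNA rose by 1.22 ± 0.27 (adjusted p = 0.0438), and the contrast was 1.66 ± 0.37 (adjusted p = 0.0233). In the deposited TPM, which account for length, total mRNA of Atp5l went the other way, with group means of 893 in Neuron and 711 in LNB. Its ribosome-bound means were 1614 in Neuron and 878 in LNB, so the size of its contrast depends on the measure. Atp5j, coupling factor 6 of the same enzyme, rose on ribosomes by 0.81 ± 0.17 (adjusted p = 0.0263) and had a contrast of 0.95 ± 0.22 (adjusted p = 0.0307). Ndufc2 of complex I was higher in the contrast by 1.44 ± 0.32 (adjusted p = 0.0231) and Atp5j2 of ATP synthase by 1.30 ± 0.30 (adjusted p = 0.0278). Mean total mRNA of Atp5j in TPM was also higher in Neuron (1003) than in LNB (864), while that of Ndufc2 and Atp5j2 was lower in Neuron. Among the 10 fits with another setting, the contrast was called in 4 for Atp5l, 3 for Atp5j, 3 for Atp5j2 and 7 for Ndufc2. Ndufab1, named after its values were seen and known as the mitochondrial acyl carrier protein of complex I, rose on ribosomes by 1.14 ± 0.19 (adjusted p = 0.00617), to 217 and 302 CPM in Neuron against 109, 123 and 137 CPM in LNB, while its contrast of 0.87 ± 0.25 was not called (adjusted p = 0.0692). The contrast call of Atp5l ended without LNB total replicate 1, LNB ribosome-bound replicate 1 or 3 or Neuron ribosome-bound replicate 2 (adjusted p up to 0.191). That of Ndufc2 ended without LNB ribosome-bound replicate 1 or 2 or Neuron ribosome-bound replicate 2 (up to 0.169). Atp5j2 (up to 0.241) lost its call without LNB total replicate 1 or any of the 5 ribosome-bound libraries, and Atp5j (up to 0.237) without the same libraries or Neuron total replicate 1 or 2. All 31 proteasome subunits were above the control, and 1 was called, Psmb4 at 1.04 ± 0.25 (adjusted p = 0.0349, and 0.313 without Neuron ribosome-bound replicate 2). Psmb4 kept its call in 2 of 11 fits, those without LNB total replicate 3 or Neuron ribosome-bound replicate 1.

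**Figure D2:**
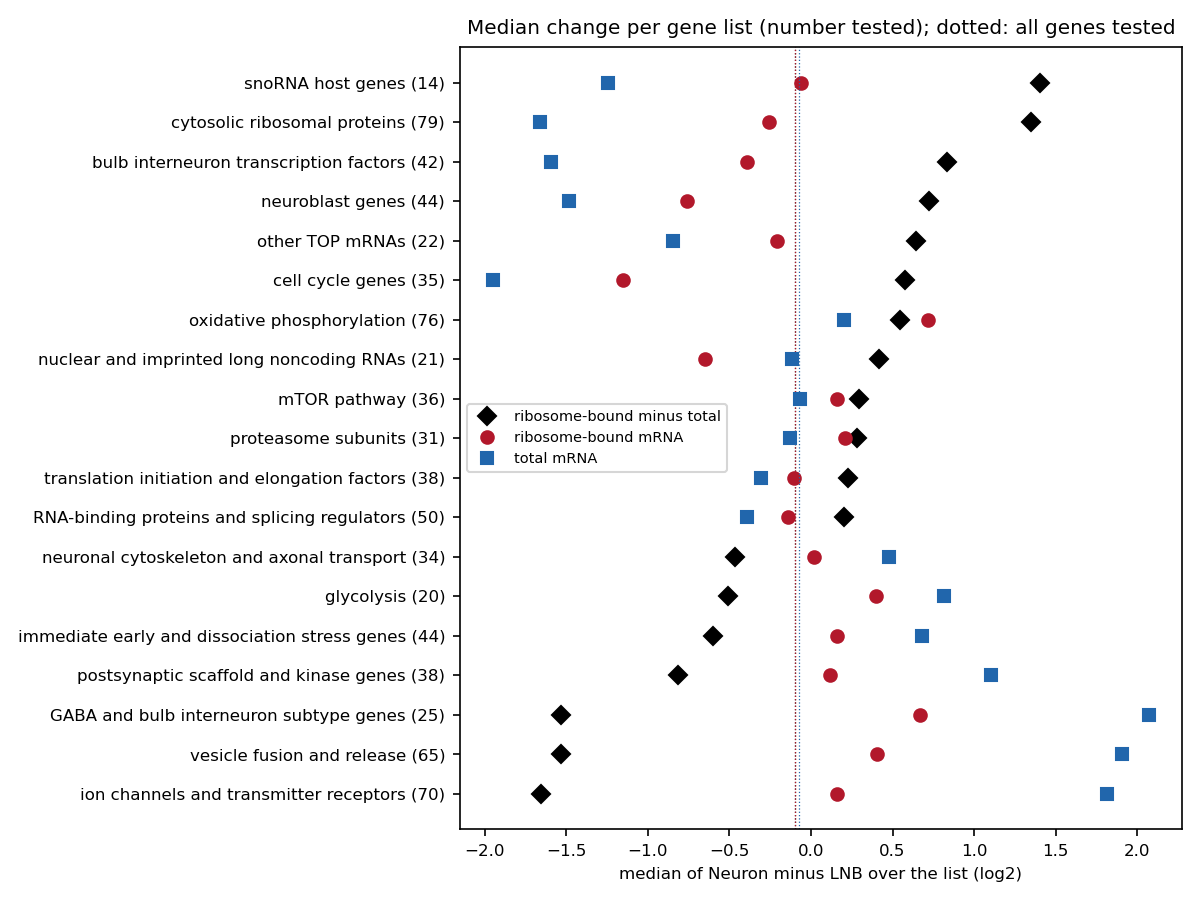
Median over each gene list (number tested in brackets) of the Neuron minus LNB change in ribosome-bound mRNA (circles), in total mRNA (squares) and of their difference (diamonds), on the log2 scale; dotted lines give the medians of all genes tested. The circles lie nearer to 0 than the squares in most lists, while oxidative phosphorylation has its circle at 0.71 and its square at 0.20. The circle is also farther from 0 than the square in the proteasome, mTOR pathway and noncoding RNA lists.

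Of 65 synaptic vesicle and release genes tested, 18 were called lower in relative ribosome association and 0 higher (0 also at an unadjusted p under 0.05 and by DESeq2), 59 had a negative contrast, and the list's median was -1.53. Total mRNA was higher in 44 of them with a median of 1.91, whereas the ribosome-bound median was 0.41 with 1 gene called higher and 1 lower. The list summed to 33200 to 34000 CPM in Neuron and 27700 to 29700 CPM in LNB ribosome-bound libraries and to 26500 to 37100 CPM in the controls. In total mRNA it summed to 21200 to 25200 CPM in Neuron and 5310 to 6720 CPM in LNB. The LNB immunoprecipitates thus held vesicle genes at a level near that of the untagged bulb, far above the sorted LNB cells, and the share of untagged neuronal RNA in them was not tested. The marker lists of oligodendrocytes and of mitral neurons had negative medians as well, with a contrast of -3.47 and a total mRNA change of 3.19 over 15 oligodendrocyte markers and a contrast of -2.65 and a total mRNA change of 2.99 over 11 mitral and glutamatergic neuron markers, although 0 of either list were called in the contrast (5 lower in each at an unadjusted p under 0.05, and by DESeq2 2 oligodendrocyte markers and 1 mitral marker), and the part of these cells in the vesicle counts was not tested.

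Nsf, the ATPase that takes SNARE complexes apart, had 1033 and 905 CPM in Neuron and 805, 869 and 868 CPM in LNB ribosome-bound libraries. Its total mRNA was 719.7, 759 and 701 CPM in Neuron and 145, 92.9 and 79.1 CPM in LNB, and the controls held 634, 629 and 299 CPM. Every ribosome-bound library was above every control, and the total groups were far apart. The contrast was -2.51 ± 0.40, made of 0.26 in bound and 2.76 in total mRNA, and is given without a test because the gene was chosen with results known. In TPM, which account for length, Nsf had group means of 531 in Neuron and 368 in LNB ribosome-bound mRNA and of 327 in Neuron and 51.4 in LNB total mRNA.

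Syn2, a synapsin that tethers vesicles, had 644 and 555 CPM in Neuron and 552, 722 and 502 CPM in LNB ribosome-bound libraries. Sorted cells held 187, 203 and 259 CPM in Neuron and 26.6, 21.9 and 30.3 CPM in LNB, and the controls held 142 to 372 CPM. The bound groups overlapped, were all above the controls, and gave a contrast of -2.93 ± 0.61 (adjusted p = 0.0168). The proton pump subunits that acidify vesicles, Atp6v1a (-1.61 ± 0.33, adjusted p = 0.0159) and Atp6v1b2 (-1.32 ± 0.29, adjusted p = 0.0207), were lower as well. Vamp2, the vesicle SNARE, named after its values were seen, rose on ribosomes by 1.10 ± 0.25 (adjusted p = 0.0465) and in total mRNA by 2.02 ± 0.23, and its contrast of -0.92 ± 0.34 was not called (adjusted p = 0.144). Leaving out either Neuron ribosome-bound library ended the calls of Syn2 (adjusted p up to 0.113), Atp6v1a (up to 0.0906) and Atp6v1b2 (up to 0.141), and that of Atp6v1b2 also ended without LNB total replicate 1 or LNB ribosome-bound replicate 3.

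Ion channels and transporters had a list median of -1.66, with 14 of 70 called lower and 0 higher (1 higher at an unadjusted p under 0.05 and 0 by DESeq2), and 19 of the 70 above the control. Slc12a5, the chloride extruder KCC2 that makes GABA inhibitory, had 346 and 305 CPM in Neuron and 226, 249 and 212 CPM in LNB ribosome-bound libraries. Total mRNA libraries held 217, 194 and 143 CPM in Neuron and 28.3, 15.4 and 7.46 CPM in LNB, and the controls held 143 to 205 CPM. Of these groups the LNB total mRNA alone lay far below the rest, and the contrast was -2.85 ± 0.60 (adjusted p = 0.018). Atp1b1, a beta subunit of the sodium pump, was at -1.85 ± 0.36 (adjusted p = 0.0128). Gabra5, a GABA-A receptor subunit, was at -4.67 ± 1.07 (adjusted p = 0.0258). Each of these calls ended without either Neuron ribosome-bound library, with adjusted p up to 0.128 for Slc12a5, 0.0857 for Atp1b1 and 0.175 for Gabra5, and that of Gabra5 also ended without any LNB ribosome-bound library.

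Postsynaptic genes were called lower in 6 of 38 and higher in 1, with a median of -0.82. Camk2b, a calcium-calmodulin kinase of synapses, had 1744 and 1389 CPM in Neuron and 1122, 1235 and 989.7 CPM in LNB ribosome-bound libraries. In total mRNA it had 378, 663 and 690.4 CPM in Neuron and 46.9, 48.1 and 33.5 CPM in LNB. Its bound groups did not overlap, but the bound change of 0.55 was not called (adjusted p = 0.708), and the contrast was -3.17 ± 0.61 (adjusted p = 0.0115). Its partner Camk2a was at -3.50 ± 0.68 (adjusted p = 0.0121), and Baiap2, an actin-membrane scaffold, at -2.28 ± 0.45 (adjusted p = 0.013). Nrxn3, a presynaptic adhesion gene on the same list, was called the other way at 1.23 ± 0.32 (adjusted p = 0.0433). Rbfox3, the NeuN antigen of mature neurons, had 399 and 402 CPM in Neuron ribosome-bound and 105, 110.2 and 121 CPM in Neuron total libraries. In LNB it had 299.9, 351 and 328 CPM in ribosome-bound and 8.51, 23.3 and 6.30 CPM in total libraries, for a contrast of -2.73 ± 0.52 (adjusted p = 0.011). The controls of Rbfox3 held 263, 303 and 220 CPM, so its lowest LNB ribosome-bound library lay within their range. Camk2b lost its call without Neuron ribosome-bound replicate 2 alone (adjusted p = 0.0949). Camk2a (up to 0.111), Baiap2 (up to 0.0729) and Rbfox3 (up to 0.0978) lost theirs without either Neuron ribosome-bound library, and Nrxn3 (up to 0.30) kept its call in 1 of 11 fits, the one without LNB total replicate 3.

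The genes with the most negative contrast were close to absent from LNB total mRNA. Klhl1, a kelch protein of neurons, had 31.4 and 46.3 CPM in Neuron and 24.8, 25.2 and 19.1 CPM in LNB ribosome-bound libraries. It had 4.42, 4.31 and 8.04 CPM in Neuron total mRNA and 0 counts in all 3 LNB total libraries, against 9.87 to 20.1 CPM in the controls. Its total mRNA was at least 50.3-fold higher in Neuron, set against a floor of 3 counts over the 3 LNB libraries, and with that floor the contrast is at or below -4.89. Cpne6, a calcium-dependent membrane-binding copine, had 1523 and 1369 CPM in Neuron and 959, 1153 and 984 CPM in LNB ribosome-bound libraries. Its total mRNA was 683, 441 and 756 CPM in Neuron and 14.5, 12.9 and 6.13 CPM in LNB, with 532 to 939 CPM in the controls. The contrast of Cpne6 was -5.23 ± 0.59 (adjusted p = 0.000797), and both calls held without any single library, Klhl1 at adjusted p up to 0.0355 and Cpne6 up to 0.0122. Pde1a, a calmodulin-dependent phosphodiesterase, was at -7.79 ± 1.40 (adjusted p = 0.00873), and Grem1, a secreted BMP antagonist, at -6.92 ± 1.69 (adjusted p = 0.0372). Both were under 1 CPM in every LNB total library. Scgn, the calcium-binding protein secretagogin of bulb interneurons, was at -5.03 ± 1.28 (adjusted p = 0.046), with 294 and 359 CPM in Neuron and 168, 206 and 186 CPM in LNB ribosome-bound libraries. The call of Pde1a ended without Neuron ribosome-bound replicate 2 alone (adjusted p = 0.0729). Grem1 (up to 0.182) kept its call in 3 of 11 fits, those without LNB total replicate 1 or 3 or Neuron total replicate 3, and Scgn (up to 0.206) in 2, those without LNB total replicate 1 or 3. Scgn was the only called gene of 25 GABA and interneuron subtype genes, whose list median was -1.53.

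Several other genes at the ends of the ranking had few counts on ribosomes. Frat2, a Wnt pathway gene, had the most positive contrast among the picked genes at 5.97 ± 1.31 (adjusted p = 0.0216), with 5.26 and 4.46 CPM in Neuron and 7.37, 12.7 and 10.7 CPM in LNB ribosome-bound libraries. Ube2c, a ubiquitin-conjugating enzyme of mitotic exit, followed at 5.43 ± 1.31 (adjusted p = 0.033), with at most 3.44 CPM in any ribosome-bound library and 0 to 1.36 CPM in the controls. Both bound levels are low, and the contrast follows total mRNA, which in Ube2c was 0, 0 and 6.70 CPM in Neuron and 41.5, 30.6 and 17.4 CPM in LNB. Alg10b, a glucosyltransferase of the endoplasmic reticulum, was better expressed, with 48.3 and 72.1 CPM in Neuron and 70.4, 60.4 and 55.7 CPM in LNB ribosome-bound libraries, and had a contrast of 3.70 ± 0.73 (adjusted p = 0.0129). Sema4c, Rem2, Tlnrd1, Gm17711 and Gm17750 were called higher by 3.03 to 3.76. Gm17711 had a mean TPM of 0 in every group, so its contrast exists in the raw counts only. At the other end stood Cds1, a CDP-diacylglycerol synthase, at -5.04 ± 0.98 (adjusted p = 0.0128), Gm9962 at -4.98, Gda, guanine deaminase, at -4.79, Hs6st2, a heparan sulfate sulfotransferase, at -4.52 and Tuba8, a tubulin isotype, at -4.30. The annotated span of Gm9962 overlaps that of Gabra5, and its group means were 0.205 to 0.933 in TPM, so it is not a separate result from Gabra5 with certainty. Tuba8 had 408 and 322 CPM in Neuron and 160, 176 and 169 CPM in LNB ribosome-bound libraries, so its bound groups did not overlap. Alg10b and Gm17750 lost their calls without Neuron ribosome-bound replicate 2 alone (adjusted p = 0.078 for Alg10b and 0.0922 for Gm17750). Cds1 (adjusted p up to 0.101) and Rem2 (up to 0.0678) lost theirs without either Neuron ribosome-bound library, and Gm17711 (up to 0.169) without LNB ribosome-bound replicate 1 or Neuron ribosome-bound replicate 2. Frat2 and Tlnrd1 kept theirs in 6 of 11 fits, Ube2c and Gm9962 in 5, Hs6st2 in 4, Tuba8 in 3 and Sema4c and Gda in 2, and each of these 8 calls was lost without either Neuron ribosome-bound library.

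Arc, the immediate early gene of synaptic plasticity, differed between its replicates, with 780.1 and 134 CPM in Neuron ribosome-bound libraries and 552, 479 and 429.9 CPM in LNB. Total mRNA held 39.8, 85.6 and 197 CPM in Neuron and 4.86, 1.91 and 0 CPM in LNB, and the controls held 206 to 678 CPM. The contrast was -5.53 ± 1.10 (adjusted p = 0.0132, and 0.0889 without Neuron ribosome-bound replicate 2, the one library whose absence ended the call). Of 44 immediate early and dissociation stress genes, 2 were called higher, Dusp1 at 2.17 ± 0.49 (kept in 5 of 11 fits) and Btg1 at 2.48 ± 0.59 (kept in 3), and 2 lower, Arc and Sgk1 (not above the control, and named after its values were seen), with a median of -0.60, which turned to 0.22 with the index as a term. Summed over the list, Neuron ribosome-bound libraries held 6880 to 12300 CPM and LNB ribosome-bound libraries 8870 to 9710 CPM. Sorted Neuron cells held 6580 to 7850 CPM and sorted LNB cells 4440 to 6720 CPM. Dissociation came before the total libraries only, and its part in these values was not tested.

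Glycolysis genes were called lower in 3 of 20 and higher in 0 (0 also at an unadjusted p under 0.05 and by DESeq2), with a median of -0.51. Aldoa, the muscle and brain aldolase, had 3555 and 3271 CPM in Neuron and 2017, 2094 and 2041 CPM in LNB ribosome-bound libraries. Total libraries held 2194, 2336 and 2714 CPM in Neuron and 513, 263 and 614 CPM in LNB. Neither the bound nor the total groups overlapped, and the contrast was -1.55 ± 0.37 (adjusted p = 0.0301). Eno2, the neuronal enolase, was at -2.72 ± 0.63 (adjusted p = 0.028) and Pkm, pyruvate kinase, at -1.11 ± 0.28 (adjusted p = 0.041). With the index as a term the list's median turned to 0.12. Aldoa (adjusted p up to 0.119) lost its call without any of the 5 ribosome-bound libraries, and Eno2 (up to 0.17) without those or LNB total replicate 1. Pkm (up to 0.179) kept its call in 5 of 11 fits, those without LNB total replicate 2 or 3, Neuron total replicate 1 or 2 or Neuron ribosome-bound replicate 1.

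Cytoskeleton genes had 1 gene called higher and 3 lower of 34. Actb, cytoplasmic actin, had 3124 and 3111 CPM in Neuron and 3921, 3872 and 4647 CPM in LNB ribosome-bound libraries, against 743 to 1999 CPM in the controls. In total mRNA it had 1607, 1558 and 1677 CPM in Neuron and 5071, 6925 and 3809 CPM in LNB. Every bound library was above every control, and the contrast was 1.38 ± 0.28 (adjusted p = 0.0134). Dync1i1, a dynein intermediate chain of axonal transport, was at -2.66 ± 0.65 (adjusted p = 0.0347). Actb lost its call without Neuron total replicate 2 or either Neuron ribosome-bound library (adjusted p up to 0.103). Dync1i1 (up to 0.19) kept its call in 4 of 11 fits, those without LNB total replicate 2 or 3 or Neuron total replicate 1 or 3.

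**Figure D3:**
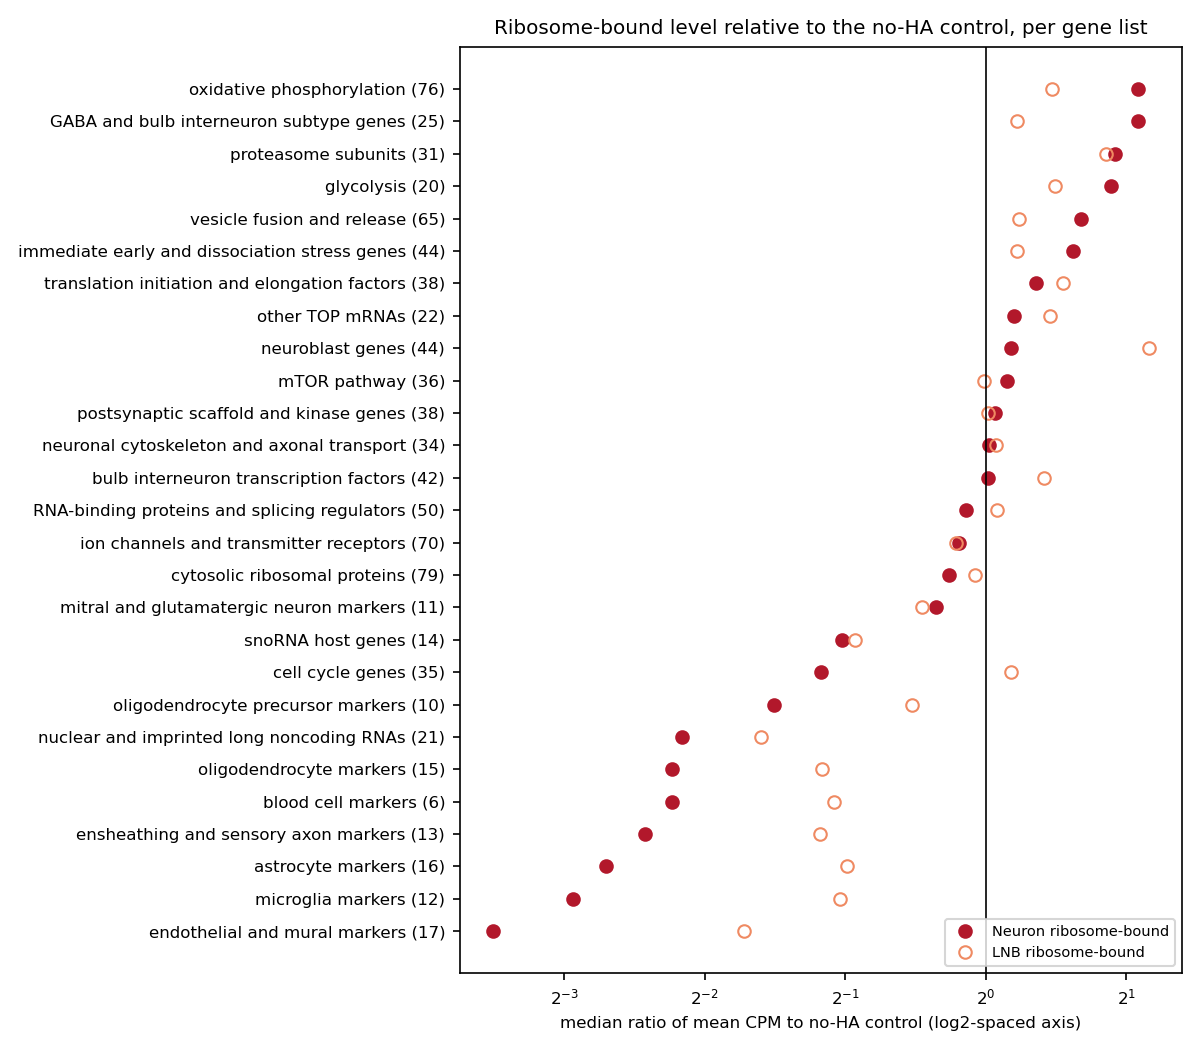
Median ratio of the ribosome-bound level to the no-HA control over each gene list (number tested in brackets), for Neuron (filled) and LNB (open), on an axis spaced by log2; the vertical line marks equality with the control. Markers of astrocytes, microglia and endothelial cells lie left of the line at both stages and farther left in Neuron, ribosomal proteins lie just left of it, and oxidative phosphorylation has the ratios 2.12 in Neuron and 1.38 in LNB.

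Of the 275 calls above the control, 23 held in every fit that left out 1 library, 12 of them higher and 11 lower, and 9 of them held in all 21 fits, which adds the 10 fits with another setting. The genes in this paragraph that the rule did not pick were named after their values were seen. H3f3a, which encodes the replication-independent histone H3.3, had 302 and 337 CPM in Neuron and 378, 404 and 448 CPM in LNB ribosome-bound libraries. Its total mRNA was 147, 156 and 175 CPM in Neuron and 1194, 1389.8 and 838 CPM in LNB, for a contrast of 2.56 ± 0.33 (adjusted p = 0.00096). H3f3a has close copies in the genome, so its counts may be divided among them. S100a10, a partner of annexin A2, had 97.2 and 107 CPM in Neuron and 44.5, 51.3 and 55.6 CPM in LNB ribosome-bound libraries, and its total mRNA ran from 19.9 to 54.0 CPM in Neuron and from 104 to 179 CPM in LNB. Bound and total mRNA of S100a10 pointed in opposite directions, but the bound change of 1.08 was not called (adjusted p = 0.20), and the contrast was 3.14 ± 0.47 (adjusted p = 0.00275). Atp2b1, a plasma membrane calcium pump, had 1491 and 1705 CPM in Neuron and 1419.8, 1408 and 1456 CPM in LNB ribosome-bound libraries. It had 728, 908 and 1016 CPM in Neuron and 106, 118 and 95.2 CPM in LNB total mRNA, and 1122 to 1389 CPM in the controls, for a contrast of -2.80 ± 0.36 (adjusted p = 0.00096). Epha5, an ephrin receptor of axons, was at -3.12 ± 0.43 (adjusted p = 0.00156), with 270.3 and 349 CPM in Neuron and 312, 321 and 278 CPM in LNB ribosome-bound libraries and 252 to 295 CPM in the controls. In Atp2b1 and Epha5 the bound levels were close to those of the untagged bulb at both stages.

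Under stricter versions of the rule the genes were fewer. When every ribosome-bound library had to exceed every control, 2052 tested genes remained, of which 92 were called higher and 69 lower. When both means had to exceed 2 times the control, 490 remained, with 25 called higher and 6 lower. The 6 lower genes were Dync1i1, Ncdn, Necab1, Scgn, Syn2 and Zcchc12, and the 25 higher ones included Actb, H3f3a, Psmb4, Rpl27 and Sp9. These names follow from the stricter rule and were seen with their values. Outside the genes above the control, 3 genes were called lower in the contrast with bound and total mRNA each called in opposite directions, Pi4ka, Pvt1 and Unc13a. Unc13a, a vesicle priming factor, had 619.5 and 601.8 CPM in Neuron and 6343, 3991 and 3899.7 CPM in LNB ribosome-bound libraries against 12722 to 15116 CPM in the controls, so both bound groups lay below every control.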

How the data were processed

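The authors deposited raw counts per gene for total and immunoprecipitated mRNA of Smart-seq2 libraries; the counting tool is not given in the sources used here. They also deposited RSEM expected counts and TPM, and per the submitters' processing notes RSEM 1.2.21, Bowtie2 2.2.6 and GRCm38 were used. Groups were taken from titles and descriptions.

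From the raw counts, edgeR 4.0.16 (R 4.3.3) quasi-likelihood fits with TMM scale factors and filterByExpr used 21 libraries, 12 of total and 9 of ribosome-bound mRNA, with 1 mean per group, and adjusted p-values by Benjamini-Hochberg over 19913 genes at a threshold of 0.05. Every adjusted p in the text comes from these fits unless DESeq2 1.42.0 is named. The SE is the log2 value divided by the square root of the F statistic. The 14 libraries held 5225929 to 14624002 counts. CPM divides counts by the library total. TPM values are used as deposited, without 92 rows that have no gene ID. Expected counts were rounded to whole numbers.

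The 4 genes Dlx2, Sox11, Nsf and Rps23, the rule and the gene lists were chosen with earlier results of these data known. Named genes were the 12 with the largest contrast each way and up to 4 per list, by smallest p, among called genes above the control with a group mean of at least 20 CPM and the same sign without any single library, plus those 4 genes and Rpl22. Alternatives were RLE factors, TMM from genes above the control, no filter, DESeq2, only the 11 libraries, the replicate number as a block, the second index as a term (27 libraries), expected counts, leaving out 3 genes that overlap ribosomal RNA by their symbols, other rules for the control, and each library left out. The fit with LNB total mRNA of the Neuron index only was chosen after seeing the data and holds 1 LNB total library. The statistics were tested on simulated data. Some results are not reported here.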

Additional observations from a re-analysis of the deposited data

How the results depend on the processing

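The count of genes called in the contrast was 627; it was 1740 by DESeq2, 322 with the replicate number as a block and 164 with the second index as a term. Above the control 275 genes were called, against 652 by DESeq2, 122 with the block and 60 with the index term. Requiring every ribosome-bound library above every control left 2074 genes with 161 called, and requiring 2 times the control left 980 with 31 called. The ribosome-bound change was called in 149 genes, in 237 with scale factors from genes above the control, 720 by DESeq2, 11 in the fit of the 11 libraries, 73 with the index term and 235 with LNB total mRNA of the Neuron index only. With the block, edgeR called it in 0 genes, although 352 were higher and 1239 lower at an unadjusted p under 0.05. The total mRNA change was called in 3844 genes and in 2335 with the block. The cause of these shifts was not tested.

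With 1 library left out, the genes above the control numbered 5707 to 6977, those called among them 32 to 356, all contrast calls 78 to 845, the ribosome-bound calls 32 to 237 and the total mRNA calls 2775 to 3659. Replicate numbers share no recorded source: same-numbered libraries correlated between -0.13 and 0.059 over 15 pairs in their deviations from group means, so the block pairs libraries by number alone. The share of calls above the control that were higher was 60.0%, but 40 of 200 in the fit of the 11 libraries, 13.9% with the block, 36.6% without a filter and 81.7% with the index term. Of the 275 calls, 274 remained by DESeq2, 239 with RLE factors, 214 with factors from genes above the control, 167 on expected counts, 132 in the fit of the 11 libraries, 79 with the block and 35 with the index term. The contrast of the named genes reversed in 0 of the alternatives run, but some list medians changed sign. With the index as a term the median contrast turned to 0.12 for glycolysis, 0.22 for immediate early genes, 0.71 for microglia markers, -0.13 for RNA-binding proteins and -0.04 for nuclear and imprinted noncoding RNAs, and the median of 13 ensheathing and sensory axon markers, 0.10, turned to -0.26. The ensheathing and noncoding medians also turned under other settings, and leaving out 1 library turned the median of those lists or of the RNA-binding protein, initiation factor, cell cycle, astrocyte, endothelial or microglia list. Medians of the ribosome-bound change turned to -0.07 for postsynaptic genes and -0.03 for ion channels with factors from genes above the control. Depth was not thinned, and the Neuron ribosome-bound group has 2 libraries.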

Other observations

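The gene families in this section were chosen after their values were seen. Of 25 spliceosomal Sm and Lsm genes tested, which form the rings of splicing particles, 20 were above the control and 6 of these were called higher: Lsm2, Snrpc, Snrpd2, Snrpe, Snrpf and Snrpg. Of all genes above the control, 2.94% were called higher and 1.96% lower. The median contrast of the 20 was 1.16, made of 0.19 in ribosome-bound and -0.90 in total mRNA, with 19 of 20 positive. Snrpg had 34.7 and 38.8 CPM in Neuron and 47.0, 53.3 and 48.3 CPM in LNB ribosome-bound libraries. In total mRNA it had 22.1, 14.6 and 20.5 CPM in Neuron and 141, 129.7 and 95.0 CPM in LNB. The controls of Snrpg held 28.2, 24.6 and 40.1 CPM. Its Neuron ribosome-bound libraries lay within that range and below the control that matches Neuron in time (40.1 CPM). The contrast of Snrpg was 2.33 ± 0.31, and its call held without any single library. Of the 11 fits that left out 1 library, Snrpe kept its call in 10, Snrpc in 5, Snrpd2 in 3, Snrpf in 2 and Lsm2 in 1. Of 67 mitochondrial ribosomal protein genes above the control 1 was called higher, Mrpl52, with family medians of 0.36 in the contrast, 0.37 in ribosome-bound and -0.03 in total mRNA.

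Of 18 V-ATPase genes above the control 4 were called lower (Atp6v1a, Atp6v1b2, Atp6v1c1 and Atp6v1g2), with a family median of -0.55 and 5 positive values. Atp6v1a kept its call in 9 of the 11 fits that left out 1 library, Atp6v1b2 in 7, Atp6v1c1 in 4 and Atp6v1g2 in 3. Both Atp2b1 and Atp2b2 of 3 plasma membrane calcium pumps were called lower. Of 35 cell cycle genes tested, 6 were above the control, with a list median of 0.57 (-0.17 without Neuron ribosome-bound replicate 1), and 16 were lower in total mRNA. Among 14 snoRNA host genes 0 were above the control, and among 21 nuclear and imprinted noncoding RNAs 1 was.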
